A study of Mus musculus with 282 samples.

Results

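The genes described here are the 24 gene loci of distal mouse chromosome 1 whose first exon base lies between positions 171500000 and 177000000 of the mm10 build, out of 12524 located gene loci with a gene value and 722 on chromosome 1. All 24 have a gene value, 11 lie on the plus strand and 13 on the minus strand, and they hold 105 of the 51024 transcripts with a value. RNA of the whole hypothalamus was sequenced from 282 male mice fed a high fat diet, 1 library per mouse, from 99 strains of the Hybrid Mouse Diversity Panel. Of these, 25 are classical inbred strains and the others are recombinant inbred lines in 4 sets: 43 BXD strains (from C57BL/6J and DBA/2J), 18 AXB/BXA strains (C57BL/6J and A/J), 7 CXB strains (C57BL/6J and BALB/cJ) and 6 BXH strains (C57BL/6J and C3H/HeJ). The strain was known for 281 mice. Values are FPKM, fragment counts scaled by transcript length and library size, so that levels can be compared between genes per length, and differences are on the log2(FPKM + 1) scale. The window was chosen from associations of genes on other chromosomes with this region in these same mice, and its genes from their position, so the strain differences below describe the region and are not independent evidence that it stands apart.

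A recombinant inbred strain carries, at almost every position, the allele of 1 of its parents in both copies. A gene whose RNA level depends on a variant close to it (a local effect) therefore tends to sit at the level of one parent or of the other across such a set, and neighbouring genes travel together because few crossovers separate them. A hotspot is a region whose variants are associated with the levels of many genes elsewhere (distant effects), and distal chromosome 1 is known in mouse crosses for many loci affecting behaviour and gene expression in the brain. Its genes include potassium channels of glia and neurons, parts of the secretory pathway and of gamma-secretase, and families of immune receptors.

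Before the results, 3 libraries need mention. Across 9255 genes above 5 FPKM, mice OB-273 and OB-274 of CXB-6/ByJ differed by 1 constant factor (median ratio 0.9951, SD of the log2 ratio 2.8e-06, against 0.17 for the next closest pair of any strain), which is less than sampling noise, and they were counted as 1 sample. This left 280 libraries with a strain, with 3 in 84 strains, 2 in 13 and 1 in 2. Mouse OB-547 of BXD-12/TyJ had a sum of 792801 FPKM over all genes against a median of 337533, and several values that depend on it are given without it as well. All 8 measured hypothalamus markers were above 0 in every library (summed level 856 to 9258 FPKM). The files give no read counts, so the depth behind each value is unknown here and no counting interval was computed.

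Sequences just before the starts of Copa, Dcaf8 and Kcnj10 are shown first because these 3 genes had the largest strain shares of the 24. Each is the run of 250 bases before the RefSeq start in GRCm38.p6, the assembly of mm10, on the plus strand, with capitals marking a GC box (GGGCGG) or a CCAAT box (CCAAT) on either strand.
Copa, chr1:172082279-172082528, plus strand: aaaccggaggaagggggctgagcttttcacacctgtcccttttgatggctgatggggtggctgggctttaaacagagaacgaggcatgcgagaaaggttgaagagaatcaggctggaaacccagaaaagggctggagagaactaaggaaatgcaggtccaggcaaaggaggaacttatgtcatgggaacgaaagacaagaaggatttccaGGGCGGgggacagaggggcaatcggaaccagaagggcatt
Dcaf8, chr1:172147765-172148014, plus strand: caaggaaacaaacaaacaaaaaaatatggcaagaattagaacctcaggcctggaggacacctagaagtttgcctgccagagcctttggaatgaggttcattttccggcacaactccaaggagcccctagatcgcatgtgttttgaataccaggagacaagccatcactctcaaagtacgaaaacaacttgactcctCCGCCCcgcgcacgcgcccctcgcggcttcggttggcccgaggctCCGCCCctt
Kcnj10, chr1:172340960-172341209, plus strand: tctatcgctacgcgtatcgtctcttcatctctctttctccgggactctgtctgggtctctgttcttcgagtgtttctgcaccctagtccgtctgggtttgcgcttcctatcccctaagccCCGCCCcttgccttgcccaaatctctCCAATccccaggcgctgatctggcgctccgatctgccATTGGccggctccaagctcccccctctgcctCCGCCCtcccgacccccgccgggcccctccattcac
Copa held 1 GC box 40 bases before its start, Dcaf8 held 2 and Kcnj10 held 2 GC boxes and 2 CCAAT boxes. Promoters were found for 20 of the 25 gene symbols of the loci, 21 promoters in all, of which 12 held a GC box and 7 a CCAAT box, against 32.7% and 33.8% of all 32851 promoters. TATAAA was found before Kcnj9 and CACGTG before Rgs7, each in 1 of the 21, against 12.4% and 6.02% of all promoters. These are matches of letters in the reference sequence of C57BL/6J, and no allele of another strain was read. The Copa sequence lies inside the assembled locus of Ncstn, which runs the other way. The assembled Copa and Ncstn loci overlap head to head by 592 bases (chr1:172082204-172082795). The libraries are unstranded, so reads from this overlap cannot be told apart by strand.

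Across 99 strains, 21 of the 24 genes (87.5%) differed in limma's moderated F test with Benjamini-Hochberg adjustment over all 14079 genes, where 74.9% of all genes did. Their strain share of variance (the share of the variance of log2(FPKM + 1) that lies between strains, as an intraclass correlation) ran from -0.0197 in Cep170 to 0.947 in Copa, with a median of 0.315 against 0.221 over all genes. Copa, alpha subunit of the coatomer that coats vesicles of the early secretory pathway, ranked 49 among all 14079 genes, Dcaf8, a substrate receptor of CUL4 ubiquitin ligases, ranked 258 with a share of 0.855, and Kcnj10, the inward rectifier Kir4.1 of astrocytes and oligodendrocytes, ranked 270 with 0.849. Ncstn, nicastrin of the gamma-secretase complex, had a share of 0.639, Rgs7, an activator of G protein alpha subunit GTPases, 0.638, and Pigm, a mannosyltransferase of GPI anchor synthesis, 0.635. Kcnj9, the G protein-gated channel GIRK3, and Fmn2, an actin-nucleating formin, had 0.535 and 0.53, and Opn3, an opsin of the brain, 0.408. The genes without a call were Dusp23, a phosphatase at 2.11 FPKM (share 0.0824, adjusted p = 0.104), Sdccag8, a centrosomal protein (0.0747, adjusted p = 0.126), and Cep170, another centrosomal protein (adjusted p = 0.621). With the F test rerun without replicate 1, 2 or 3 of each strain in turn, 11 of the 21 were called every time, among them Ncstn, Copa, Dcaf8, Pea15a, Kcnj9, Kcnj10, Pigm, Fmn2, Rgs7 and Opn3.

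**Figure D1:**
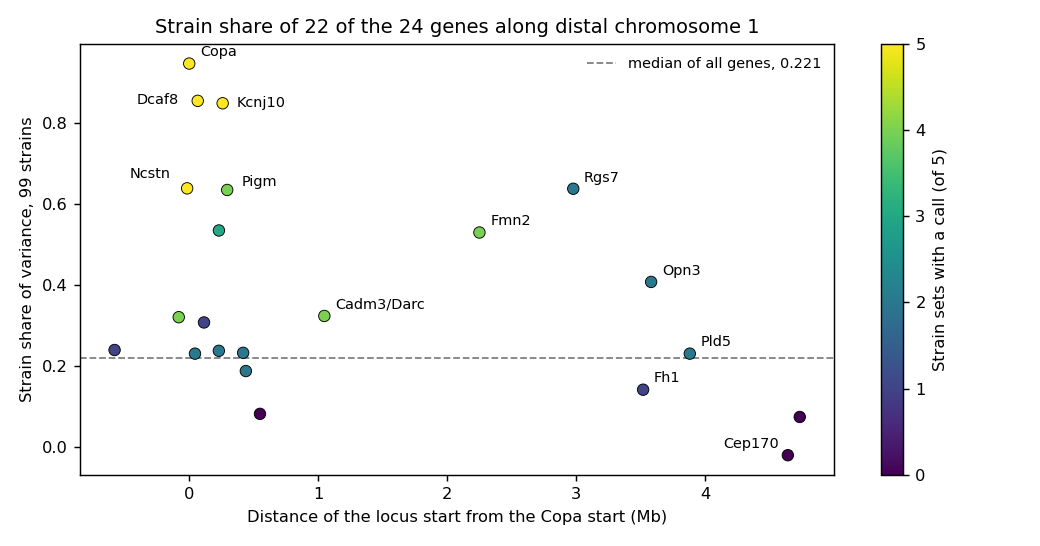
Strain share of variance over 99 strains (vertical axis, no unit) of 22 of the 24 genes against the distance of their starts from the Copa start (horizontal axis, Mb), with colour giving the number of the 5 strain sets in which the gene was called. Copa (0.947), Dcaf8 (0.855) and Kcnj10 (0.849) lie within 0.259 Mb of each other, while Rgs7 (0.638) and Fmn2 (0.53) lie over 2 Mb from the Copa start. The dashed line is the median over all genes, 0.221.

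By function, the counts of calls stand against 74.9% of all genes called and a median share of 0.221. Of the lists used here, the 5 trafficking, proteolysis and organelle genes (Ncstn, Copa, Pex19, Dcaf8, Pigm) were all called, with a median share of 0.639. The potassium channel genes Kcnj9 and Kcnj10 were called too. Of the 12 adhesion, cytoskeleton and signalling genes 10 were called, with a median of 0.273, which is near those of all genes, and Fh1, the fumarate hydratase of the citric acid cycle and the 1 metabolic enzyme of its list with a value in the window, had a share of 0.142 (adjusted p = 0.0176). Without mouse OB-547 the share of Fh1 over all strains was 0.199. Its call among BXD strains was then lost, while calls among CXB and inbred strains were gained. Of the study's own list of genes local to the peak, which was chosen on these mice and is no independent evidence, 12 are among the 24 and 11 were called. No locus of the SLAM and PYHIN immune families, which lie in this stretch of the mouse genome, is among the named loci, so these families were not analysed here. At the edges of the window, Alyref2 and Vangl2 were the first genes inside (means 3.29 and 7.59 FPKM, shares 0.24 and 0.321), and Cep170 and Sdccag8 the last (20.1 and 7.21 FPKM). Just outside lay Usf1 and F11r before it (24.7 and 4.79 FPKM, shares 0.123 and 0.522) and Zbtb18 close after it (15.5 FPKM, share 0.0455).

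Copa sat at separate levels in every strain set. In C57BL/6J its level was 68.7, 68 and 68.3 FPKM in the 3 mice, against 45.9, 43.2 and 45.6 in DBA/2J, 43.7, 42.6 and 44.1 in A/J, 48.5, 51 and 47.9 in BALB/cJ, and 49.3, 48.2 and 44.8 in C3H/HeJ. The C57BL/6J mice lay above all mice of the other 4 parents, with no overlap. Among BXD strain means, 18 lay from 43.4 to 52 FPKM and 25 from 66 to 77.6, a gap of 0.408 of the range on the log2 scale. The AXB/BXA means split into 8 of at most 47.4 and 10 of at least 67.9 FPKM, the CXB means into 4 of at most 52.8 and 3 of at least 68.9, and the BXH means into 2 of at most 46.5 and 4 of at least 69.1. Among the inbred strains 20 lay between 43.5 and 51.6 FPKM and 5 between 67.7 and 72.1. These 5 were C57BL/6J, its relatives C57L/J (67.7) and C57BLKS/J (71.3), and I/LnJ (69.7, 1 mouse) and MA/MyJ (72.1), so the high level was not confined to strains named C57. Copa was called in all 5 sets, with shares of 0.688 in CXB to 0.979 in BXH, and with adjusted p from 6e-80 in BXD to 2.2e-31 in CXB (limma).

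**Figure D2:**
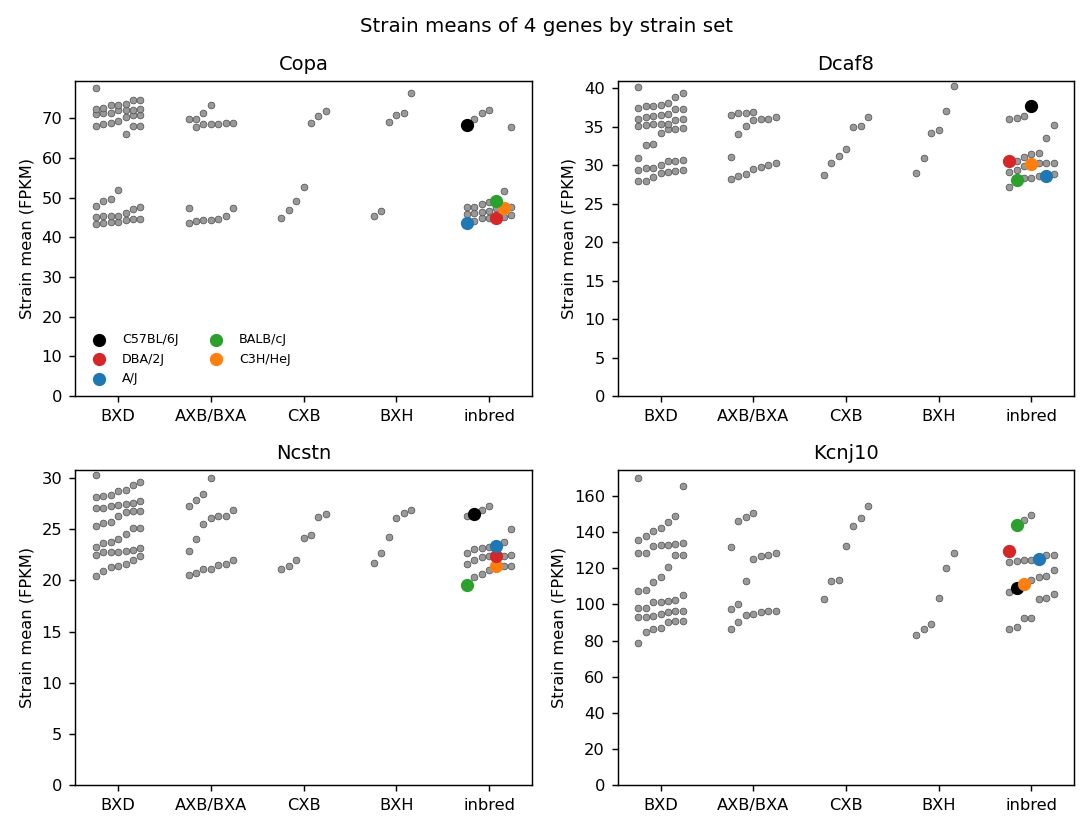
Strain means (vertical axes, FPKM, starting at 0) of Copa, Dcaf8, Ncstn and Kcnj10 in the 5 strain sets (horizontal axes), 1 point per strain, with the 5 parental strains in colour. Copa falls into a lower band of about 43.4 to 52 FPKM and an upper band from 66 FPKM in the BXD strains and leaves a gap in each other set, while Kcnj10 spreads from 78.4 to 170 FPKM in the BXD strains, wider than its parents.

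Beside Copa, 4 more genes were called in all 5 sets, among them Ncstn, Dcaf8 and Kcnj10. By set, 20 of the 24 genes were called among BXD strains (64% of all genes), 11 among AXB/BXA strains (22.1%), 10 among CXB strains (16.4%), 7 among BXH strains (18.4%) and 15 among inbred strains (47.4%). Without mouse OB-547, which entered the estimate of the spread shared by all sets, these counts were 19, 13, 14, 8 and 19. The share of all genes called without it is not given here. Without each replicate in turn, the genes called every time numbered 11 in BXD, 6 in AXB/BXA (Ncstn, Copa, Dcaf8, Kcnj10, Pigm, Fmn2), 3 in CXB and 3 in BXH (Copa, Dcaf8 and Kcnj10 in both), and 8 in the inbred strains. Dcaf8 strain means ran from 28 to 40.2 FPKM in BXD (median 35.1) and split in AXB/BXA into 8 strains of at most 31.1 and 10 of at least 34.1. Ncstn ran from 20.4 to 30.3 FPKM in BXD without such a gap, and Pigm from 1.74 to 2.97. Kcnj10 ran from 78.4 FPKM in BXD51 to 170 in BXD64, from 86.5 to 151 in AXB/BXA, from 103 to 155 in CXB and from 82.8 to 128 in BXH.

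Against C57BL/6J, the direction of the calls was mostly down. In DBA/2J, 3 of the 24 genes differed (6.85% of all genes), all lower, among them Copa (log2 difference -0.60, SE 0.0605, adjusted p = 2.5e-16) and Dcaf8 (-0.29). Without mouse OB-547, which entered the estimate of the spread, 5 genes differed, with Alyref2 (0.56, higher) and Fmn2 (-0.27, lower) added. The share of all genes called in DBA/2J without that mouse is not given here. In A/J, 5 differed (7.98% of all genes), among them Copa (-0.64), Dcaf8 (-0.38) and Fmn2 (-0.35), which were lower, and Kcnj9 (0.50), which was higher. In BALB/cJ, 6 differed (6.75%), among them Ncstn (-0.41), Copa (-0.47), Dcaf8 (-0.41) and Igsf8 (-0.44), an immunoglobulin superfamily membrane protein, which were lower, and Kcnj10 (0.40), which was higher. In C3H/HeJ, 5 differed (7.56%), with Vangl2 (-0.53), a planar cell polarity protein, Ncstn (-0.29), Copa (-0.52) and Dcaf8 (-0.31) lower and Kcnj9 (0.48) higher. The 4 comparisons share the 3 C57BL/6J mice, so the calls are not independent of each other. Without each replicate in turn, Copa and Dcaf8 kept their call in all 4 and Ncstn kept it in BALB/cJ, and the other calls were each lost at least once (highest adjusted p 0.102 to 0.434). Over the 24 genes the median log2 difference from C57BL/6J was -0.20 in DBA/2J, where 18 of 24 were lower, -0.10 in A/J, -0.14 in BALB/cJ and -0.06 in C3H/HeJ, against medians over all genes of -0.0202 to 0.00854. Reads of all strains were aligned to the C57BL/6J genome, and how far strain variants lower the alignment of these genes was not tested.

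Kcnj9 was called higher than in C57BL/6J in A/J and C3H/HeJ. It was at 23.5, 28.1 and 26.5 FPKM in C57BL/6J and at 35.8, 41.7 and 34.4 in A/J and 39.1, 33.9 and 37.3 in C3H/HeJ. In DBA/2J Kcnj9 was at 30.1, 36.4 and 35.6, above every C57BL/6J mouse without a call, and in BALB/cJ at 28.7, 25.1 and 25.8, which overlapped C57BL/6J. Kcnj9 strain means moved with the summed level of 5 thalamus markers (Pearson's r 0.78, Spearman's rho 0.83 over 99 strain means, adjusted permutation p = 0.00072 and 0.00054 over 216 relations of genes and marker lists, r 0.77 without the 2 farthest strains), and so did their deviations within strains (r 0.77 over 280 libraries). The permutations took strains as exchangeable, although many share ancestry. The thalamus list ranged from 17.4 to 381 FPKM over the libraries, no library had a marker of it at 0, and its part in the strain differences of Kcnj9 was not tested. Of the 216 relations 14 passed by both measures, among them the thalamus list with Vangl2 (r -0.39, rho -0.34) and Fmn2 (r -0.37, rho -0.31), and the microglia list with Igsf8 (0.46, rho 0.47), while none of Copa, Dcaf8, Ncstn, Pigm and Kcnj10 was among them. Without mouse OB-547 the r of Igsf8 with the microglia list was 0.38 over 99 strains and 0.13 over BXD strains. Over inbred strains it was 0.57. By 1 measure alone, Ncstn passed with the thalamus list (r -0.28, adjusted permutation p = 0.047) and with the microglia list (rho 0.35, adjusted p = 0.01), and Pigm with the microglia list (rho 0.31, adjusted p = 0.022). Fewer or more cells of a type and less or more RNA per cell cannot be told apart in such bulk tissue.

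Many Kcnj10 strain means lay outside the levels of the parental mice. It was at 115.5, 110.9 and 101.5 FPKM in C57BL/6J, at 127.7, 137.0 and 123.6 in DBA/2J, at 125.3, 125.1 and 124.5 in A/J, at 140.5, 156.6 and 135.4 in BALB/cJ, and at 116.0, 103.8 and 114.5 in C3H/HeJ. Only the BALB/cJ difference was called among these 4 parents. Yet 25 of the 43 BXD strain means lay outside the range of the 6 parental mice, 18 below 101.5 FPKM and 7 above 137.0. In AXB/BXA 16 of 18 and in BXH 5 of 6 strain means lay outside, in CXB none of 7. The BXH strains differed among themselves (share 0.91, adjusted p = 1.4e-11) although C57BL/6J and C3H/HeJ were 0.261 residual SD apart. For comparison, 2 of 43 BXD means lay outside the parental mice for Dcaf8, 6 for Ncstn and 16 for Pigm, and for Copa 20, all above 68.7 FPKM. Copa means also lay outside in 6 of 18 AXB/BXA, 5 of 7 CXB and 4 of 6 BXH strains, so this was not particular to Kcnj10. The r of Kcnj10 strain means with the sum of 5 astrocyte markers was -0.02 over 99 strains, and within strains its r with the thalamus list was 0.42.

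Rgs7 owed much of its share to 1 strain. SM/J was at 7.2, 9.65 and 12.6 FPKM in its 3 mice, while the lowest of the other libraries with a strain was at 20.3. The SM/J mean of 9.8 FPKM was 0.33 of the mean of the other 24 inbred strains, the next of which was PL/J at 25 FPKM. The gap above SM/J took 0.736 of the range of the inbred strains on the log2 scale. Without SM/J, an alternative chosen after its values were seen, the strain share of Rgs7 over all strains was 0.39 in place of 0.638, and that over the inbred strains 0.363 in place of 0.825. In SM/J, Copa was at 48.4 FPKM, Fmn2 at 16 and Kcnj10 at 125. The lowest inbred mean of Pigm, 1.59 FPKM, was found in both SM/J and RIIIS/J. The Cadm3/Darc locus, at 128, was lowest of the inbred strains in SM/J, with a gap of 0.2 of the range. Rgs7 strain means moved with the summed hypothalamus markers by r (-0.41 over 99 strains, adjusted permutation p = 0.025, rho -0.16), which went to -0.11 without the 2 farthest strains. This r was -0.81 over the inbred strains with SM/J among them, and -0.04 over BXD strains without mouse OB-547. With the thalamus list rho was 0.47 (adjusted permutation p = 0.00054, r 0.33, adjusted p = 0.067), and r within strains was 0.58. The part of these lists in the Rgs7 differences was not tested. In BXD, where Rgs7 ran from 24.5 to 38 FPKM, its share was 0.431 (adjusted p = 4.6e-07).

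**Figure D3:**
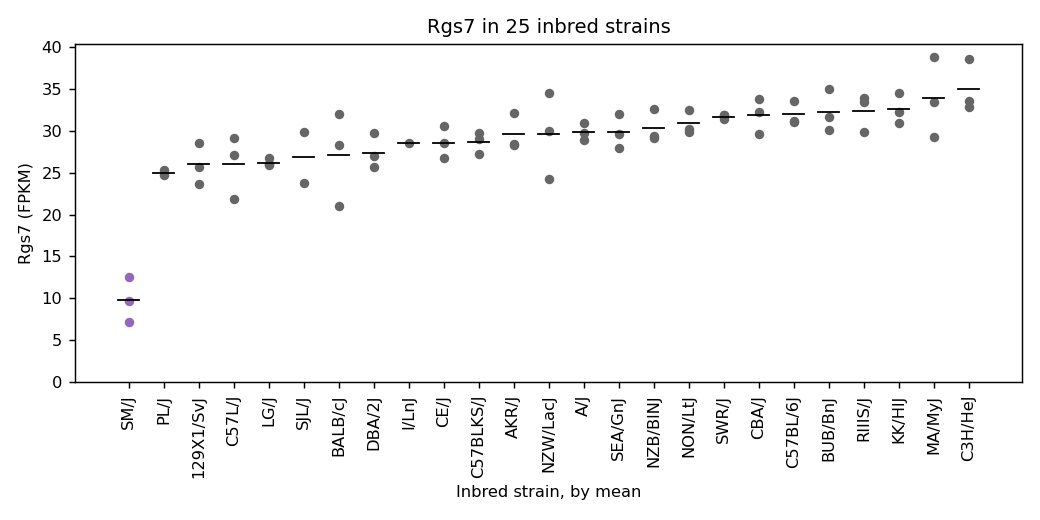
Rgs7 level (vertical axis, FPKM, starting at 0) in the 25 inbred strains, ordered by mean, with 1 point per library and a bar at the strain mean. SM/J (purple, 7.2 to 12.6 FPKM) lies below every other strain, the next being PL/J with a mean of 25 FPKM.

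Across the 43 BXD strain means, the levels of some of these genes were correlated. How many pairs of other genes pass in this or another strain set was not measured. Copa was left out of the pooled correlations because its strain means fall into separate groups, and for the other 23 genes 61 of 253 pairs were correlated (2-sided permutation test with 100000 resamples, Benjamini-Hochberg over 253 pairs), 33 of them positively and 28 negatively. By Spearman's rho 42 pairs passed, 38 of them by both measures, and without mouse OB-547 51 pairs passed, with 22 of the 61 lost and 12 others gained. Ncstn, Dcaf8 and Pigm went up together and Kcnj10 went the other way. The r was 0.80 for Ncstn and Pigm (rho 0.73), 0.73 for Dcaf8 and Pigm (rho 0.62) and 0.69 for Ncstn and Dcaf8 (rho 0.58), while it was -0.82 for Ncstn and Kcnj10 (rho -0.76), -0.79 for Kcnj10 and Pigm (rho -0.71) and -0.73 for Dcaf8 and Kcnj10 (rho -0.62). Each of these 6 had an adjusted permutation p of 0.00021 for r, from the smallest p that 100000 resamples can give (1e-05), and of 0.00032 to 0.0018 for rho, and with the 2 strains most distant from the first gene's median left out, their absolute r was 0.70 to 0.81. Without mouse OB-547, the r of the BXD strain means with the thalamus list was -0.39 for Ncstn, -0.28 for Pigm, -0.17 for Dcaf8, -0.40 for Fmn2 and 0.37 for Kcnj10, and the part of that list in these correlations was not tested. Alyref2, a relative of the mRNA export adaptor Alyref, went with Kcnj10 and against the other 3 (r -0.66 with Ncstn, -0.63 with Pigm, -0.60 with Dcaf8). Fmn2 went with Pigm, 1.96 Mb away (r 0.66, rho 0.63), and with Ncstn, 2.27 Mb away (0.65, rho 0.68). Igsf8 went with Dcaf8 (0.70, rho 0.69) and the Cadm3/Darc locus (0.61, rho 0.54).

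**Figure D4:**
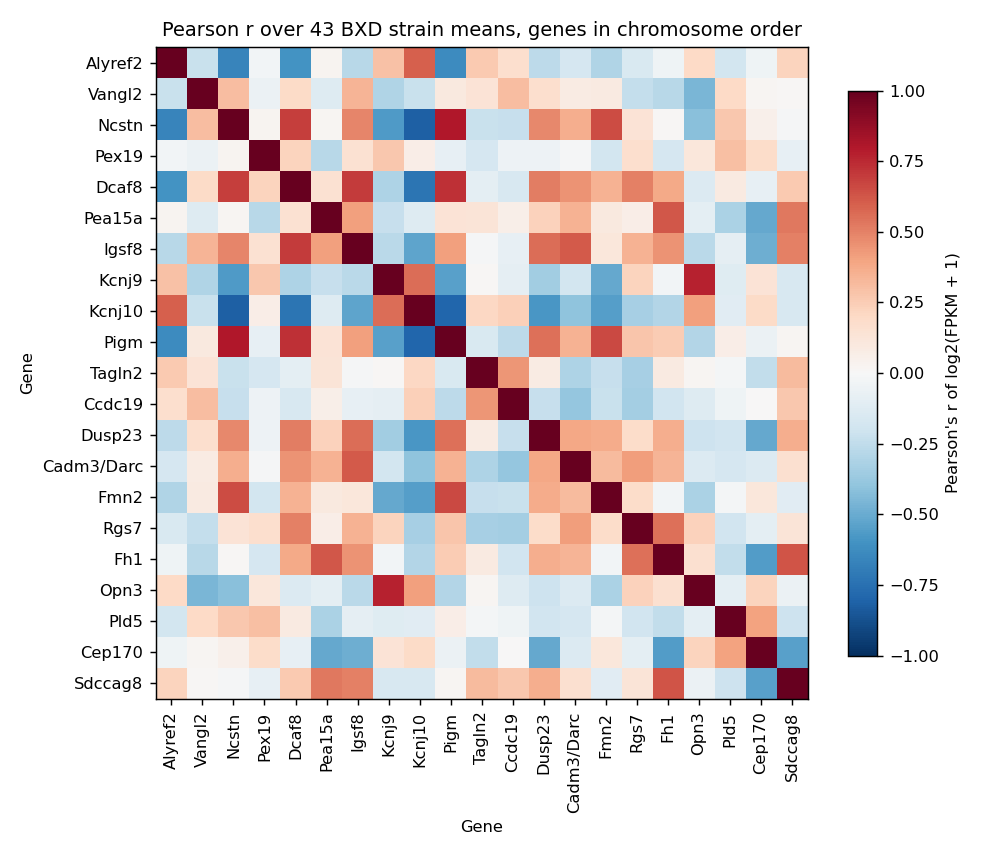
Pearson's r of log2(FPKM + 1) over 43 BXD strain means for each pair of 21 genes in chromosome order (both axes), from -1 (blue) to 1 (red). Kcnj10 is blue against Ncstn (-0.82), Pigm (-0.79) and Dcaf8 (-0.73), and these 3 are red among themselves; Kcnj9 and Opn3 (0.77) pair at a distance.

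By distance between starts, of the 113 pairs under 1 Mb apart 29.2% passed, of the 66 pairs from 1 to 3 Mb 24.2%, and of the 74 pairs over 3 Mb 16.2%, and with mouse OB-547 left out 32, 14 and 5 pairs passed. The median absolute r was 0.24, 0.246 and 0.175, and the difference between distances was not tested. The highest absolute r over 3 Mb was that of Kcnj9 and Opn3, 3.35 Mb apart, at 0.77 (rho 0.79). Vangl2 and Opn3 (3.66 Mb, r -0.46, rho -0.46) and Ncstn and Opn3 (3.6 Mb, r -0.42, rho -0.43) also passed by both measures, and by r without mouse OB-547. Opn3 strain means, like those of Kcnj9, moved with the thalamus list (r 0.61, rho 0.73 over 99 strains, adjusted permutation p = 0.00072 and 0.00054), and the part of that list in this pair was not tested. A pair of correlations among the 10 highest rested on mouse OB-547: Fh1 and Sdccag8 went from an r of 0.63 to 0.24 without it, and Pea15a and Fh1 from 0.62 to 0.34. That mouse was at 190.8 FPKM for Fh1 (26.1 to 84.2 in all others) and at 39.2 for Sdccag8 (3.82 to 17.1 in all others), while its Copa level of 59.8 FPKM lay below the 71.4 and 72.9 of the other BXD-12/TyJ mice and between the lower and upper groups of BXD strain means. The median absolute r over the 253 pairs was 0.222 between BXD strain means and 0.216 for deviations of mice from their strain mean, or 0.211 and 0.137 without mouse OB-547.

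The opposite movement of Ncstn and Kcnj10 was measured in every set. In AXB/BXA, where Copa, Dcaf8 and Pea15a were left out for separate groups of strain means, r was -0.81 (rho -0.66, adjusted permutation p = 0.0045 and 0.039), and 35 of 210 pairs passed. In the inbred strains r was -0.65 (rho -0.53, adjusted p = 0.023 and 0.14), and 5 of 253 pairs passed, none by rho. Over the 7 CXB and the 6 BXH strains it was -0.88 and -0.97, and no pair passed in either set (exact permutation test, 33 and 22 pairs at an unadjusted p under 0.05, smallest adjusted p 0.27 and 0.46). Kcnj10 and Pigm were at r -0.69 in AXB/BXA (adjusted permutation p = 0.024) and at -0.27 in inbred strains (adjusted p = 0.52). Ncstn and Pigm were at 0.85 (adjusted p = 0.0014) and 0.55 (adjusted p = 0.076). Ncstn and Dcaf8 were at 0.79 in inbred strains (adjusted p = 0.0051). Kcnj9 and Opn3 did not pass outside BXD (r 0.51 in AXB/BXA, adjusted p = 0.15, and 0.55 in inbred strains, adjusted p = 0.076). Their r was -0.11 over the 7 CXB and 0.17 over the 6 BXH strains. Within the lower and the upper group of BXD strains by Copa, the r of Copa with Ncstn, Dcaf8, Kcnj10 and Pigm was -0.16 to 0.55 over 18 strains and -0.11 to 0.38 over 25, and none passed among these 8 (adjusted permutation p = 0.15 to 0.99).

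To describe blocks of parent-like levels without genotypes, each strain mean was placed on the side of the nearer parent wherever the parents' mice did not overlap and differed by at least 4 residual SD. Copa and Dcaf8, whose starts are 0.0658 Mb apart, met this in all 4 recombinant sets. They lay on the same side in 41 of 43 BXD strains (24 on the C57BL/6J side, 17 on the DBA/2J side), in 18 of 18 AXB/BXA strains (10 and 8), in 6 of 7 CXB strains (3 and 3) and in 5 of 6 BXH strains (3 and 2). The exceptions in BXD were BXD-9/TyJ, at the DBA/2J side for Copa and the C57BL/6J side for Dcaf8, and BXD73, between the parents for Dcaf8. At 2 residual SD, a looser limit added after seeing how few genes met the first, 8 genes could be placed in BXD. Compared with Copa, Kcnj10 at 0.259 Mb lay on the same side in 40 strains and on the opposite side in 2, and Alyref2 at 0.579 Mb in 34 and 3. Fmn2, at 2.25 Mb, lay on the same side in 32 and the opposite side in 8. Kcnj9 (27 and 11) and Vangl2 (22 and 9) lie nearer to Copa than Fmn2 does, and the differences between these counts were not tested. In AXB/BXA, Fmn2 was on the side of Copa in 15 of 18 strains and Kcnj9 in 6, and only 7 BXD strains were on 1 side at all 8 genes. A level near the middle of the parents can be misplaced by the spread between mice, and no genotype was used.

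At the level of transcripts, 65 of the 105 transcripts differed among the 99 strains (61.9%), where 45.9% of all transcripts did. Of the 56 known transcripts 40 and of the 49 unannotated isoforms 25 were called, and Cep170 was the 1 gene with no transcript called. The Copa difference was spread unevenly over its 8 transcripts. The reference transcript TCONS_00014058 (chr1:172082832-172122330, 33 exons, mean 21.1 FPKM) had a share of 0.0977 and no call (adjusted p = 0.111). It was at 21.4, 19.5 and 18.4 FPKM in C57BL/6J and at 21.9, 18.8 and 21.2 in A/J, which overlap. In DBA/2J it was at 18.2, 15.3 and 15.2, below every C57BL/6J mouse and without a call (log2 difference -0.27, SE 0.315, adjusted p = 0.823). In contrast, the unannotated isoform TCONS_00014054 (chr1:172082529-172122515, 8.74 FPKM), which starts upstream of the reference transcript, inside the stretch shared with Ncstn, and ends downstream of it, had a share of 0.914, although no parental difference of it was called, and its neighbour TCONS_00014050 (8.23 FPKM) one of 0.886. The short 3-exon transcript TCONS_00014061 (chr1:172112191-172115568, mean 1.44 FPKM) was at 2.18, 2.65 and 2.93 FPKM in C57BL/6J and between 0.218 and 0.592 in the 12 mice of the other parents, lower in each (log2 difference -1.27 to -1.43, SE 0.161, highest adjusted p = 1.3e-10). Values of single transcripts are estimates that divide shared reads: the SE of a parental difference was 0.315 for the Copa reference transcript and 0.0605 for the gene. The known Kcnj10 transcript TCONS_00014153 (79 FPKM) had a share of 0.42 against 0.849 for the gene. Its BALB/cJ difference was not called (log2 difference 0.35, SE 0.293, adjusted p = 0.742 by limma). The unannotated isoform TCONS_00014154 (1.71 FPKM) had a share of 0.0249 and no call. The deposited transcripts of Kcnj10 summed to 80.8 FPKM against 115 for the gene, so its gene value holds more than these 2 transcripts.

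The joint locus of Cadm3, a synaptic cell adhesion molecule, and Darc, the atypical chemokine receptor of the Duffy blood group (now Ackr1), varied more in its transcripts than in its gene value. The gene value was not called in any parent and had a share of 0.324, while 4 of its 7 transcripts had shares over 0.7. The Cadm3 reference transcript TCONS_00022188 (chr1:173334254-173367695, 42.9 FPKM) was at 50.8, 51.5 and 51.2 FPKM in C57BL/6J and at 30.9, 34.5 and 36.7 in DBA/2J (log2 difference -0.58, SE 0.085, adjusted p = 4.3e-08). The unannotated Cadm3 isoform TCONS_00022178, which reaches to position 173129404, was at 43.5, 42.4 and 35.4 in C57BL/6J and 54.7, 59.1 and 49.5 in DBA/2J, which did not overlap but were not called (0.42, SE 0.143, adjusted p = 0.123). The first made up 55.9% ± 2.79 (SD, n = 3) of the sum of both in C57BL/6J, 38.5% ± 3.55 in DBA/2J, 45.2% ± 3.31 in A/J, 44.4% ± 2.42 in BALB/cJ and 41.5% ± 1.81 in C3H/HeJ. Across BXD strain means this share ran from 34.2% in BXD62 to 64.7% in BXD-40/TyJ, and across inbred strains from 33.1% in SJL/J to 64.9% in C57L/J. The Darc transcript TCONS_00022187 (chr1:173331886-173333503) was at 20.8, 17.5 and 18.8 FPKM in C57BL/6J and 8.66, 10.4 and 9.66 in DBA/2J (log2 difference -0.92, SE 0.181, adjusted p = 0.00014).

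**Figure D5:**
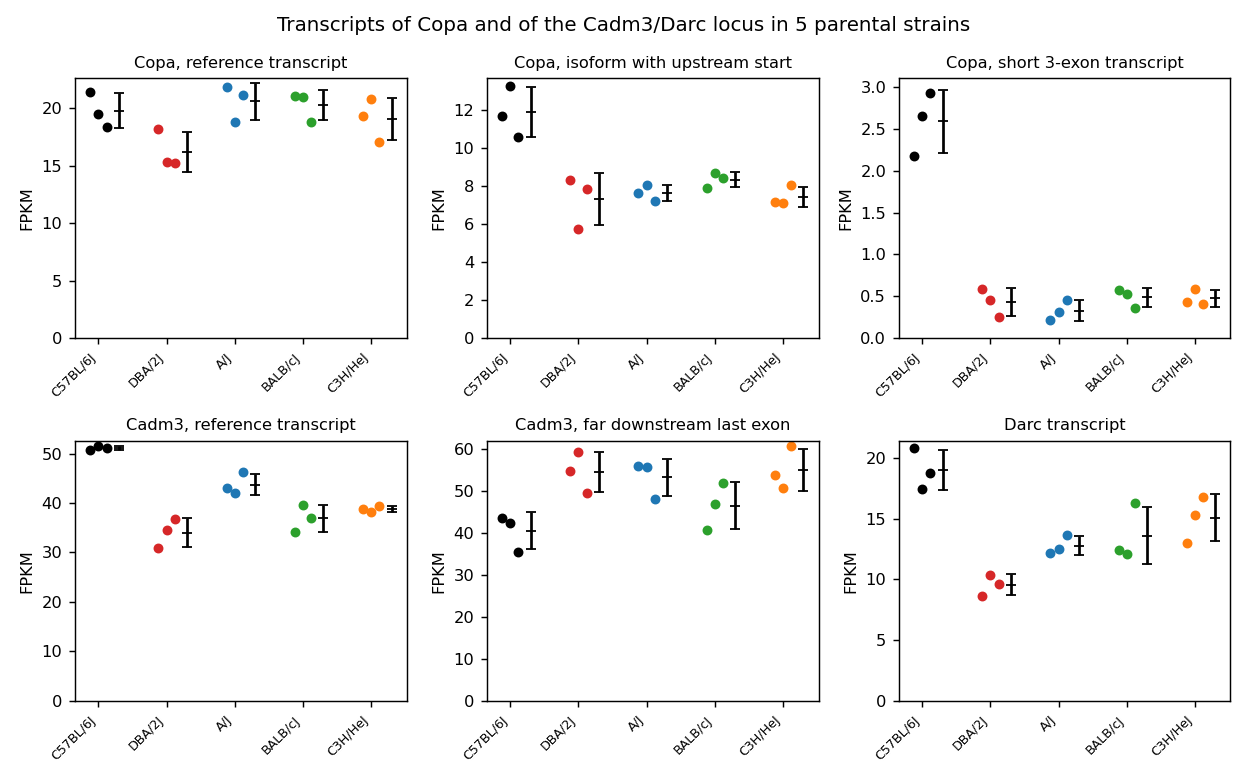
Levels (vertical axes, FPKM, starting at 0) of 3 Copa transcripts and 3 transcripts of the Cadm3/Darc locus in C57BL/6J and the 4 other parental strains (horizontal axes), with 1 point per mouse and the mean ± SD of 3 mice beside them. The Copa reference transcript overlaps between C57BL/6J and A/J, whereas the short 3-exon transcript is at 2.18 to 2.93 FPKM in C57BL/6J and at most 0.592 in the others.

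Shares at least 0.2 above that of their gene were seen for 8 transcripts of 5 loci, namely Cadm3/Darc, Pea15a, Fh1, Dusp23 and Sdccag8. This count was not set against all transcripts, and a gene with a high share, such as Copa (0.947), leaves no room for such a rise. For Pea15a, an astrocyte phosphoprotein at a mean of 232 FPKM, the main transcript TCONS_00022121 was at 233.4, 220.8 and 221.1 FPKM in C57BL/6J and at 196.9, 216.5 and 203.8 in DBA/2J (log2 difference -0.13, SE 0.0708, adjusted p = 0.484 by limma). Its short transcript TCONS_00022130 (chr1:172198416-172199815, 8.51 FPKM) had a share of 0.62 against 0.308 for the gene, and was at 6.16, 5.72 and 8.02 FPKM in C57BL/6J and 10.7, 10.2 and 11.3 in DBA/2J, a difference without a call (0.63, SE 0.25, adjusted p = 0.23). The full transcript of Fh1, TCONS_00022280, had a share of 0.498 against 0.142 for the gene. Igsf8 and Kcnj9 overlap on opposite strands by 7474 bases, through isoforms of Kcnj9 with a longer end, and their shared reads cannot be told apart by strand. The known Kcnj9 transcript TCONS_00022158 (chr1:172321033-172329263), which stays clear of Igsf8, had a share of 0.587.

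Genes on other chromosomes that moved with the window describe the values from which the window was chosen, and no test was made of them. Over 99 strain means, the share of the 11802 genes on other chromosomes whose r with a gene was 0.5 or more in size had a median of 0.318% over the 24 genes (0 to 11.7%), against 0.161% over all 12524 located genes, where the genes off each gene's own chromosome were counted and divided by the same 11802. Without mouse OB-547 the medians were 0.415% and 0.0847%, and over 43 BXD strain means they were 2.67% and 1.82% with it and 2.23% and 0.729% without it. Without it, the BXD share was 9.51% for Kcnj9, 6.51% for Opn3, 4.46% for Fmn2, 4.41% for Cep170, 4% for Ncstn, 3.66% for Pigm, 3.46% for Kcnj10, 3.36% for Copa and 2.51% for both Igsf8 and Dcaf8. With it, the share was 19.7% for Cep170 and 8.21% for Igsf8, and for the others named 2.13% (Dcaf8) to 8.41% (Kcnj9). Without mouse OB-547, the r of BXD strain means with the thalamus list was 0.83 for Kcnj9 and 0.70 for Opn3. For the others named this r was -0.40 (Fmn2) to 0.37 (Kcnj10), and the part of that list in these shares was not tested. Cep170 had no call over 99 strains. The share of Fh1 over 99 strains was 6.3% with mouse OB-547 and 0.915% without it, and that of Sdccag8 was 1.84% and 0.0763%. By r over the same 43 strain means, the genes most like Kcnj9, Ptpn3 (0.94), Adarb1 (0.93) and Nrip3 (0.93), differed from those most like Ncstn, which were Bex1 (0.83), Ubald1 (0.82) and Bex2 (0.80), and from those most like Dcaf8, Snrpd1 (0.80), Fbxw11 (0.75) and Snrpd3 (0.73). Kcnj10 moved against Tceal8 (-0.78), Bex1 (-0.77) and Khdrbs1 (-0.76), while the r of these with Ncstn was 0.78, 0.83 and 0.78. These names were chosen after their values were seen. Cytosolic aminoacyl-tRNA synthetases, a group of genes tied to this region in other mouse brain data, had, over 99 strains without mouse OB-547, a median r of 0.16 with Ncstn and -0.09 with Kcnj10 for the 17 measured members on other chromosomes, against 0.00 and 0.00 over all genes there. Over these 99 strains a single synthetase reached an absolute r of 0.5 with either gene, namely Hars, at -0.71 with Ncstn and 0.59 with Kcnj10. Over the 43 BXD strains without mouse OB-547 the median r was 0.12 with Ncstn and -0.13 with Kcnj10. There 3 synthetases reached 0.5 in size with Ncstn, 2 with Kcnj10 and 4 each with Copa and Dcaf8. Hars had the strongest r with each of these 4 genes (-0.77, 0.77, -0.80 and -0.61).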

How the data were processed

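The authors aligned unstranded reads to mm10 with STAR 2.3.1, assembled and merged transcripts with Cufflinks 2.2.0, and deposited FPKM scaled between mice by Cuffnorm 2.2.1. The study states that rows needed FPKM above 0 in 100 mice and above 1 in 50, and the fewest found over the 281 libraries counted were 100 and 49. The CXB-6/ByJ values deposited for 2 mice were averaged and counted once. Every column of values was used (0 left out), and FPKM carry no counts. Strains came from the labels, and mouse OB-627, whose labels name 2 strains, entered no comparison. log2(FPKM + 1) was fitted over 99 strains with limma 3.58.1 in R 4.3.3, without covariates, and tested with its moderated tests and Benjamini-Hochberg adjustment over all genes or transcripts (threshold 0.05). The fit was tested on simulated data. The limma p values measure the spread between these mice. Permutation p values took strain means as exchangeable, although the strains share ancestry, and no correction for kinship was made. Correlations used Python 3.11.15 with numpy 2.4.6 and scipy 1.17.1. A gene was left out of r where the largest gap of its strain means was at least 0.25 of their range with 6 or more strains on each side (5 outside BXD). The members, lists and the rule for genes named (largest and smallest shares, list members, calls in all sets, edges of the window, highest and lowest r) were chosen with earlier results of these data known. Results for a few genes of the window and beside it are not reported here.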

Additional observations from a re-analysis of the deposited data

How the results depend on the processing

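Of 147 alternative counts, 122 stayed within 1.5 times the reported one, and of 97 alternative strain shares 96 kept their side of the threshold. The exception was Sdccag8, with a share of 0.112 and a call without mouse OB-547. Changing the pseudocount to 0.1 or 0.01, dropping genes below a mean of 1 FPKM, normalizing quantiles, placing mouse OB-627 in either of its strains and counting 3 mice of CXB-6/ByJ moved no count of calls beyond 1.5 times. Without mouse OB-547, 5 genes in place of 3 differed in DBA/2J, with Alyref2 (higher) and Fmn2 (lower) added. Leaving out replicate 1, 2 or 3 gave 14 to 19 genes called over 99 strains, 12 to 19 in BXD, 6 to 9 in AXB/BXA, 5 to 11 in CXB, 4 to 7 in BXH, 9 to 13 in inbred strains, 2 to 3 in DBA/2J, 3 in A/J, 3 to 5 in BALB/cJ and 2 to 4 in C3H/HeJ, and 40 to 45 transcripts. The share of all genes called in each of these alternatives, or called every time without each replicate, is not given here. The limit of 2 residual SD, the share of Rgs7 without SM/J, the other sets of pairs and the CXB-6/ByJ alternative were chosen after seeing the data. With the 2 most distant strains left out, 40 BXD pairs passed in place of 61. At 2 residual SD, strains on 1 side at every placed gene numbered 7 in BXD, 2 in AXB/BXA, 0 in CXB and 3 in BXH. The median share of genes on other chromosomes was 2.3% at an absolute r of 0.4 (1.65% over all genes) and 0.0297% at 0.6 (0.00847%) over 99 strains, and 7.99% (7.52%) and 0.661% (0.229%) over BXD strains. No paired analysis was possible because the labels give mouse numbers and no replicate numbers shared between strains. Single transcripts, strains with 1 mouse and parental contrasts of 3 against 3 mice limit the precision.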

Other observations

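Mouse OB-627, whose labels name both AXB-6/PgnJ and AXB-8/PgnJ, was at 44.5 FPKM for Copa, against 68.2 and 69.5 in the AXB-6/PgnJ mice and 44.9 and 49.8 in the AXB-8/PgnJ mice. It was at 155 FPKM for Kcnj10, against 90.8 and 97.7 in AXB-6/PgnJ and 151 and 141 in AXB-8/PgnJ, and at 30 FPKM for Dcaf8, against 36.2 and 36.9 in AXB-6/PgnJ and 27.9 and 29.2 in AXB-8/PgnJ. For Fmn2 it was at 14.3 FPKM, against 19.8 and 18.5 in AXB-6/PgnJ and 14.9 and 13.6 in AXB-8/PgnJ. No strain was assigned from these values.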
